A study of Mus musculus with 3 samples.

Results

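Transcript signal in sinonasal mucosa labelled as that of control mice was described through the signals of a single bead array, the one labelled Control_WT. It was hybridised with biotin-labelled cRNA made from equal amounts of total RNA of 5 C57BL/6 mice, aged 6 to 8 weeks. The labels call these mice wild type and without disease, and do not give their sex. The series holds 3 such arrays, and the other two carry pools from CC10-knockout (ECRS_KO) and wild-type (ECRS_WT) mice with an allergic, eosinophilic form of chronic rhinosinusitis. A gene was taken as present when a probe assigned to it alone had a detection p-value under 0.01, and its brightest such probe stood for it. By this rule 7977 of 17349 genes with a probe were detected (46.0%), and they were ranked by signal, the brightness of the probe in linear intensity units. With 1 array there was no replicate, so every value below is 1 measurement of pooled RNA, and no test between samples was made. In pooled tissue, fewer cells of a type and less RNA per cell cannot be told apart.

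The nasal cavity of the mouse is lined by several epithelia. Respiratory epithelium carries ciliated, basal and secretory cells, while olfactory epithelium carries sensory neurons, each of which uses a single odorant receptor, together with supporting sustentacular cells. Serous and mucous glands, including Bowman's glands under the olfactory epithelium, coat both surfaces with lipocalins, antimicrobial proteins and mucins. Bone, cartilage, blood vessels and marrow lie directly beneath the mucosa and are difficult to leave behind in dissection.

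The array went against its label for 1 gene. Scgb1a1, which encodes the club cell secretory protein CC10, had a signal of 3.32 on the array labelled Control_WT and was not detected there (detection p-value of 0.238), whereas it was detected on the knockout array labelled ECRS_KO (signal 597) and on the array labelled ECRS_WT (signal 493). Whether its probe lies in the sequence removed by the knockout is not given in the sources used here. The genotype and disease state of the pool are therefore given as labelled and were not established from the data.

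The response of a probe to its transcript limited what a rank could show. Of the detected genes, 421 had at least 2 detected probes, and the pooled SD between probes of the same gene was 2.12 on the log2 scale, or 4.35-fold. In 115 of these genes all detected probes lay within 2-fold, and in 135 they lay more than 10-fold apart. The log2 difference between the first and the 100th gene by signal was 1.93, less than that SD, so the order within the 100 highest genes cannot be read as an order of transcript number. Lack of signal was no better a guide to lack of transcript. Tmsb4x, a thymosin that binds actin in most cells, had a signal of -14.4, Npm1, the nucleolar protein nucleophosmin, one of -8.42, and Hspa5, the main chaperone of the endoplasmic reticulum, one of -4.47.

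**Figure D1:**
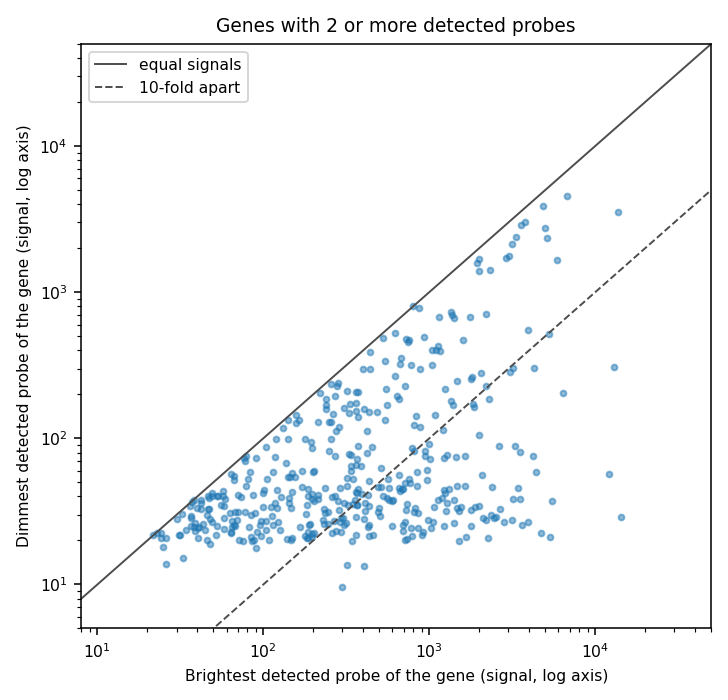
Each point is 1 of the 421 genes with 2 or more detected probes, with the signal of its brightest detected probe on the horizontal and of its dimmest on the vertical log axis. The 135 genes below the dashed line have probes more than 10-fold apart, and many of them have a dim probe near the lower limit of detection.

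Brightness and detection also disagreed in some probes. Signals over 1000 came from 2011 probes, of which 153 failed the detection threshold, 129 of them with a gene name. Scgb2b26, a secretoglobin, had a signal of 18145 with a detection p-value of 0.488 and would otherwise have ranked 40th. Rps20, of the small ribosomal subunit, had 13872 with a detection p-value of 0.0356. Ckb, the brain form of creatine kinase, had 8725 with a detection p-value of 0.224. At the threshold itself, Col8a1, a collagen of vessel walls, with a signal of 228, and Hif1an, an oxygen-sensing hydroxylase, with 181, were just inside, with detection p-values of 0.00999. Azi2, with a signal of 109, and Rbbp9, with 391, were just outside, with detection p-values of 0.01004 and 0.01008.

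Signal was concentrated in few genes. Detected genes had signals between 9.08 and 41651 with a median of 203, 1513 genes lay above 1000 and 115 above 10000. The 10 highest genes held 4.92% of the summed signal of all detected genes and the 100 highest 26.2%. The 386 highest, 4.84% of the detected genes, held 50% of it.

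**Figure D2:**
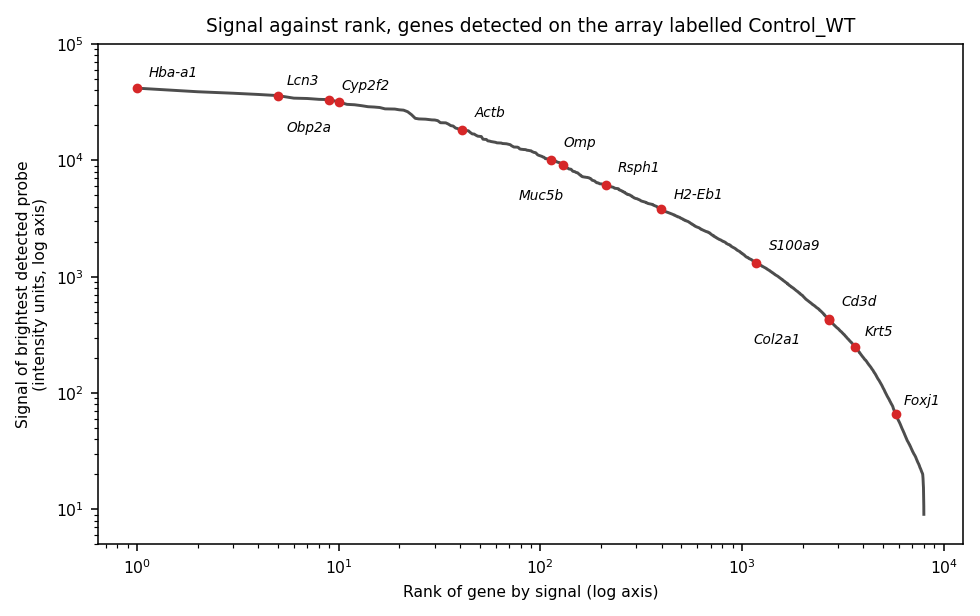
Signal of each detected gene against its rank, both on log axes, with the positions of 14 marker genes (red points) from Hba-a1 at rank 1 to Foxj1 at a signal of 66.2. The curve is nearly flat over the first genes and drops steeply below a signal of 100.

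The 10 highest genes included products of red cells and glands, enzymes of surface and olfactory mucosa, general cell machinery and 2 genes of no list. Hba-a1, alpha globin of red cells, was first with a signal of 41651, followed by Rpl41 of the large ribosomal subunit with 38787. Ltf, the iron-binding antimicrobial protein lactoferrin of glands and neutrophils, came next with 37665. A2ml1, a protease inhibitor related to alpha-2-macroglobulin, had 36755, and Lcn3, a lipocalin of nasal and vomeronasal glands, had 35938. Inmt, a methyltransferase of indole amines and other small molecules, had 34174, Ces1d, a carboxylesterase, 33934, and Mt1, a metal-binding metallothionein, 33370. The list of 10 closed with Cyp2f2, a cytochrome P450 abundant in club cells and olfactory mucosa, with 33182 and Obp2a, an odorant-binding lipocalin, with 31722. Of the 100 highest genes, 9 were first named by a gland list, 6 by a list of respiratory epithelium, 8 by one of olfactory mucosa, 3 by one of blood and marrow and 32 by one of housekeeping functions, while 38 stood in no list.

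**Figure D3:**
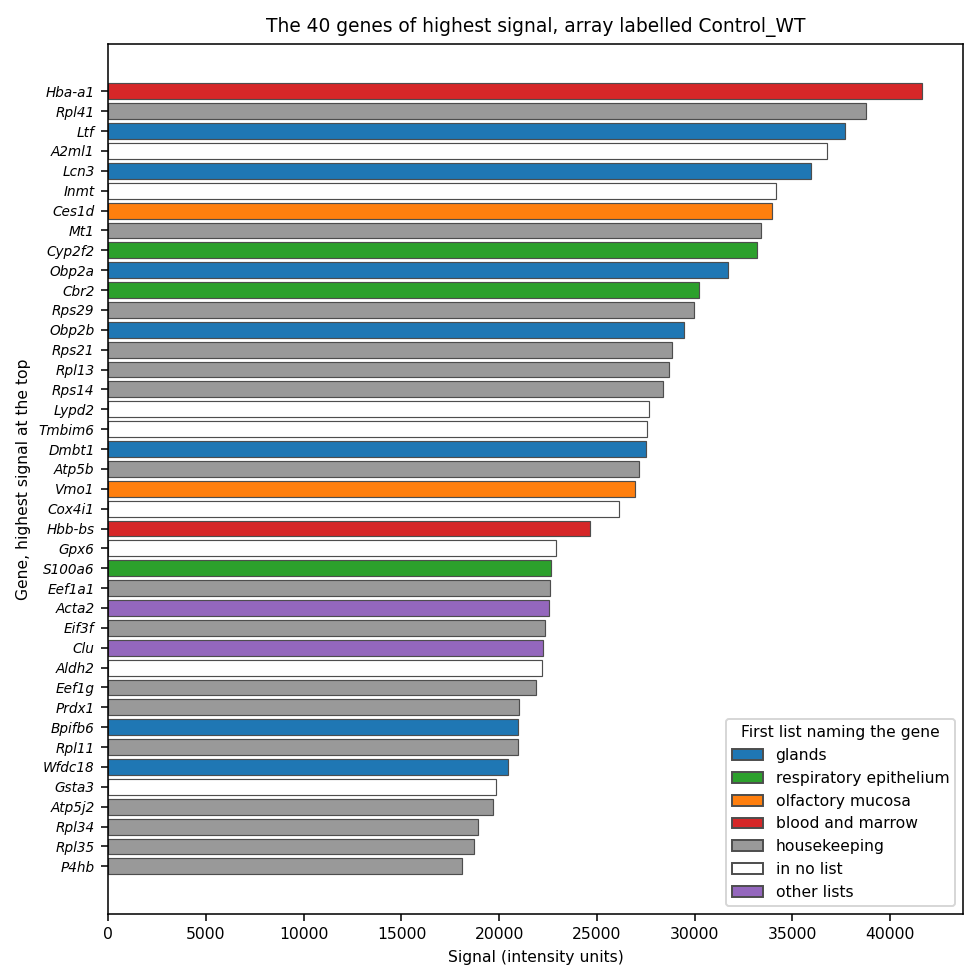
Signals of the 40 highest genes as bars from 0, coloured by the first list that names each gene. Gland products (blue), surface and olfactory enzymes (green, orange), globins (red) and ribosomal or other housekeeping genes (grey) alternate from Hba-a1 at 41651 to P4hb at 18115, with genes of other lists in purple and genes of no list, such as A2ml1 at 36755, as open bars.

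Lipocalins of the nasal glands were at the top of the array. Lipocalins are small secreted barrels that carry odorants and other hydrophobic molecules through nasal mucus. All 5 listed members with a probe were detected, 3 of them among the 100 highest genes, a place held by 1.25% of detected genes, and their median signal of 29440 lay at percentile 99.8. Obp2b had a signal of 29440 beside Lcn3 and Obp2a. Lcn4, like Lcn3 a product of vomeronasal and septal glands, was lower with 3703. Obp1a, the classical odorant-binding protein of nasal glands, had 50.5 and ranked 6179th.

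Lcn3, Obp2a and Obp2b lie on chromosome 2 within a run of 4 protein-coding genes. Their promoters are shown because neighbouring genes held signals of the same height, with the bases TATAA in capitals. Each line runs from 80 bases before to 20 bases after the annotated start (RefSeq, GRCm38.p6), at chr2:25765453-25765552, chr2:25699994-25700093 and chr2:25736927-25737026, all on the plus strand.
Lcn3: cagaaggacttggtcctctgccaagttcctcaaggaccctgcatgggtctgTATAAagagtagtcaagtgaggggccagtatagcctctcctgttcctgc
Obp2a: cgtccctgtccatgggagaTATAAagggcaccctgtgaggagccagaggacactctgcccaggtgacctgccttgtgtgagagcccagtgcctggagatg
Obp2b: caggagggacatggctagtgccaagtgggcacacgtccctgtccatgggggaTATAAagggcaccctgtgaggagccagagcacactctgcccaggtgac
The motif began 29 bases before the start of Lcn3, 28 before that of Obp2b and 61 before that of Obp2a. Obp2a and Obp2b were near copies. With the Obp2b window shifted by 33 bases, 98.5% of 267 overlapping promoter bases were identical, and the longest shared run was 125 bases. Whether the probes of this pair tell their transcripts apart was not tested.

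The BPI fold proteins, relatives of the bactericidal permeability-increasing protein, were the second family of high signal. Of 11 with a probe, 8 were detected, with a median of 7257 at percentile 96.8. Bpifb6 had 20974, Bpifa1, the airway surfactant and defence protein SPLUNC1, 16056, and Bpifb3 12121. Bpifb4 followed with 10788 and Bpifb1 with 3725. The remaining detected members were Bpifb9b with 1146, Bpifa2, the parotid secretory protein, with 194 and Bpifb5 with 130, and Bpi itself was not detected. Bpifb6, Bpifb3 and Bpifa1 lie within a run of 7 protein-coding genes on chromosome 2.

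Among 29 other gland products with a probe, 17 were detected, with a median of 1376. Dmbt1, a scavenger receptor glycoprotein of mucosal secretions, had 27534, and Wfdc18, a small protein with a whey acidic protein domain, 20468. Tff2, a trefoil peptide that stabilises mucus, had 8400 and Scgb1b27, a secretoglobin, 6270. Pip, the prolactin-inducible protein of serous glands, had 3852. Klk1, a tissue kallikrein of salivary and other glands, had 3435. Prol1, Muc19 and Lpo, the lactoperoxidase gene, were not detected, and Dcpp2 had 25.4.

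The list of club cells and other secretory cells of the surface was led by enzymes and a mucin. Of 19 genes with a probe, 13 were detected, with a median of 1487. Besides Cyp2f2, the carbonyl reductase gene Cbr2 had 30229 and Gsto1, a glutathione transferase, 12976. Muc5b, the gel-forming mucin of glands and airway surfaces, had 9067, and Cldn10, a claudin of tight junctions, 5350. The secretoglobin Scgb3a1 was not detected (signal -4.02), and neither was the trefoil peptide gene Tff3 (signal -9.65). Scgb3a2 and Scgb1c1, further secretoglobins of the list, had no probe. Muc5ac, the mucin of goblet cells, had a signal of 1547 with a detection p-value of 0.0351.

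Ciliated cells were represented broadly but at moderate signal. Of 24 of their genes 19 were detected (79.2%), with a median of 720 at percentile 75.9. Dynlrb2, a dynein light chain, had 6877, Rsph1, a protein of the radial spoke of cilia, 6119, and Rsph9, of the same structure, 4218. Foxj1, the transcription factor that directs ciliogenesis, had 66.2.

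Basal and general epithelial genes were detected in 17 of 22 cases, with a median of 2428. S100a6, a calcium-binding protein, had 22654, Anxa2, a membrane-binding annexin, 14261, and Sftpd, a collectin that binds microbes, 13907. Krt7, a keratin of simple and glandular epithelium, had 6251 and Krt14, a keratin of basal cells, 4678. Krt5, its partner in basal cells, had 251. The epithelial adhesion gene Epcam was not detected (signal -10.4), while Cdh1, encoding E-cadherin, had 165. Anxa2 had a further detected probe with a signal of 28.8.

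Of 20 squamous keratinocyte genes 10 were detected, about the share of all genes, with a median of 287 at percentile 55.8. Krt17, a keratin also present in glands and basal cells, had 3232, Dmkn, a secreted epidermal protein, 1486, and Lor, a protein of the cornified envelope, 528. Krt1 and Krt10, the keratin pair of the epidermis, were not detected (signals 13.6 and 176). Of 11 genes of tuft and solitary chemosensory cells, which taste irritants and bacterial products, 2 were detected, namely Ltc4s, a leukotriene synthase also present in myeloid cells, with 204 and Avil, an actin-binding protein, with 95.3.

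Enzymes of sustentacular cells and Bowman's glands were the brightest of the olfactory lists. These cells degrade inhaled odorants and toxicants, much as the liver does. Of 29 such genes 22 were detected (75.9%), 8 of them among the 100 highest and 14 among the 500 highest, a rank held by 6.27% of detected genes. Their median signal was 6074 at percentile 97.3. Aldh3a1, an aldehyde dehydrogenase, had 18032, Gsta4, a glutathione transferase for lipid aldehydes, 16850, and Cyb5a, the electron donor of P450 enzymes, 16792. Cyp2a4, a P450 of the olfactory mucosa and liver, had 13607 and Adh7, an alcohol and retinol dehydrogenase, 12358. Cyp2a5 of this list had no probe, and whether the probe of Cyp2a4 also reads its transcript was not tested. Cyp1a2 had 7091 and Cyp2g1, a P450 found mainly in olfactory mucosa, 2375. Other members were dim or not detected, with Ugt2a1, an odorant glucuronosyltransferase, at 119 and Sult1c1 not detected (signal -17.8). Cyp2f2 and Cbr2 stand in this list and in that of club cells, so their signal cannot be assigned to either cell type. Adh7 had a further probe that was not detected.

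Genes of olfactory sensory neurons were widely detected. Of 33 of their genes 25 were detected (75.8%), with a median of 753 at percentile 76.5. Gng13, the gamma subunit of the G protein in olfactory cilia, had 12188 and ranked 86th, and Omp, the olfactory marker protein of mature neurons, had 10088 and ranked 113th. S100a5, a calcium-binding protein of these neurons, had 5783 and Cartpt, a neuropeptide precursor, 1889. Members of the transduction cascade were lower: Ric8b, the exchange factor of the olfactory G protein, had 1436, Cnga2, the main subunit of the cyclic nucleotide-gated channel, 811, Ano2, the calcium-activated chloride channel, 676, and Adcy3, the adenylyl cyclase, 154. Gnal, the alpha subunit of the G protein, was not detected (signal 91.2). Of 14 genes of neuronal progenitors and immature neurons 7 were detected (50%, near the share of all genes). They were led by Hes6 with 3525 and Ebf3 with 2620, both transcription factors of differentiating neurons, and Sox11 with 1360. Neurog1, Neurod1, Nhlh1, Tex15, Emx2, Ezh2 and Kit of this list were not detected.

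Odorant receptors showed the opposite pattern of many genes at little signal. Of 1002 receptor genes with a probe 171 were detected (17.1%, against 46.0% of all genes), with a median of 35.8. The highest were Olfr448 with 304, Olfr1006 with 245 and Olfr598 with 171. The whole family held 0.104% of the summed signal, less than the 0.581% held by the 25 olfactory neuron genes. Of 7 genes listed as vomeronasal 3 were detected, and the brightest, Vmo1 with 26946, encodes a relative of a vitelline membrane protein and is no marker of that organ. The G protein subunits Gnai2 and Gnao1, which other cells share, had 2551 and 469, and the pheromone receptor gene Vmn1r51 was not detected.

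**Figure D4:**
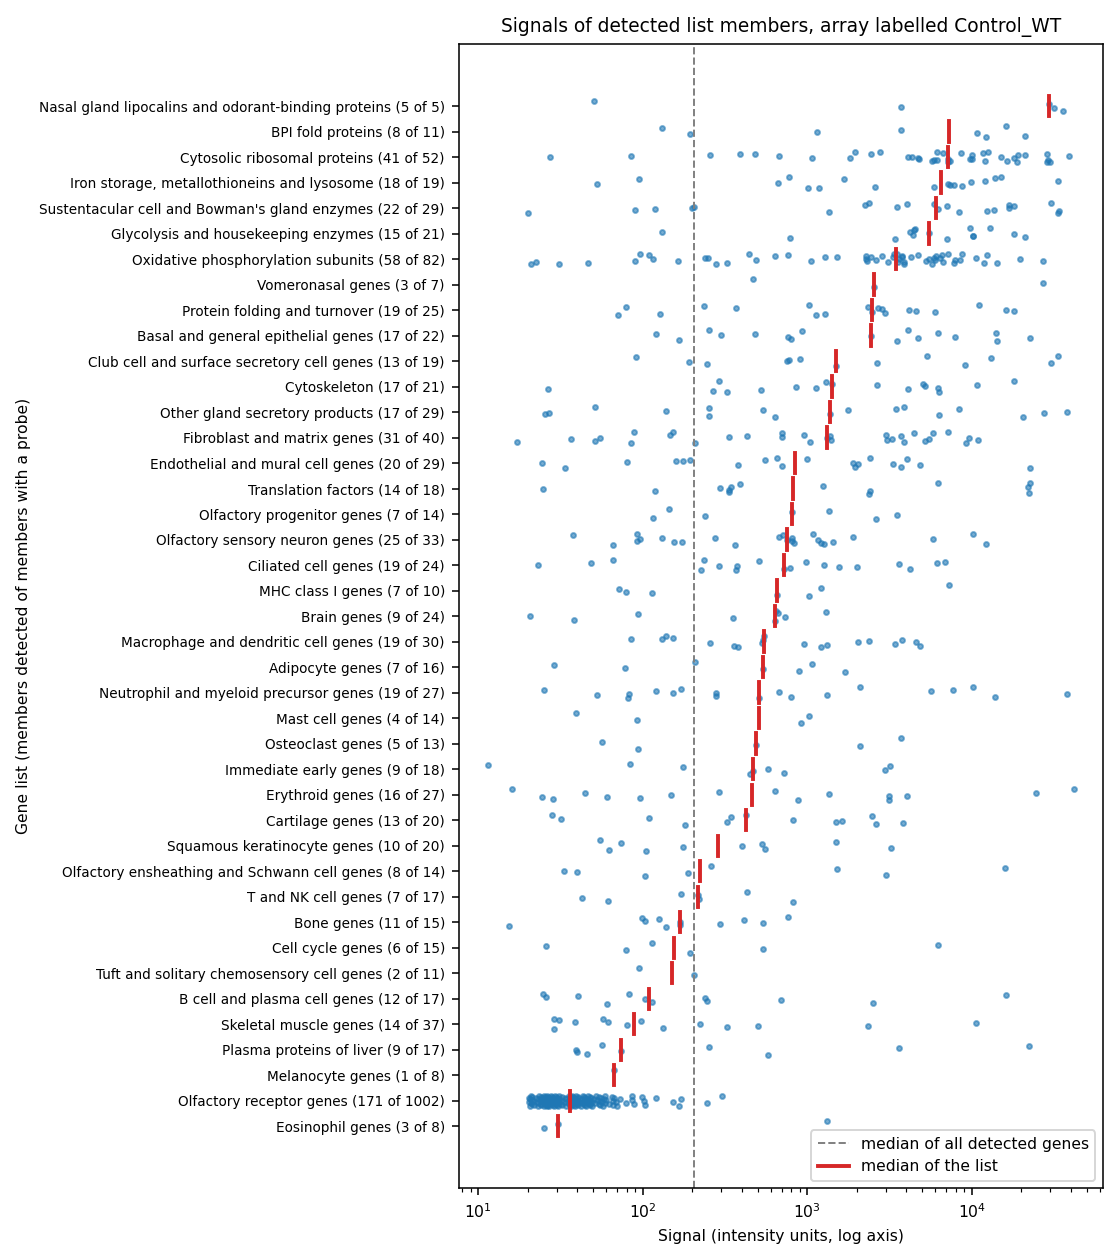
Signals of the detected members of each list (blue points) on a log axis, with the list's median (red) and the median of all detected genes, 203 (dashed). Lists run from the lipocalins with a median of 29440 down to odorant receptors with 35.8 and eosinophil genes with 30.5, and every list with over 2 detected members spans more than 10-fold.

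Red cell and marrow transcripts stood beside those of the mucosa. Of 27 erythroid genes 16 were detected (59.3%, against 46.0% of all genes), with a median of 463. This list holds Ccl21a, a chemokine of lymphatic vessels, and without it 15 of 26 were detected with a median of 291. After Hba-a1, the beta globin Hbb-bs had 24631, and further genes were much lower. Slc4a1, the anion exchanger of red cells, had 3143 and Alas2, the erythroid enzyme of heme synthesis, 878. Epb42, Rhag, Gata1 and Fech of this list were not detected (signals 1.97, 5.73, 13.3 and 4.92). The near-identical globin genes share sequence, so the value of Hba-a1 may include that of its copy. Of 27 neutrophil and myeloid precursor genes 19 were detected (70.4%), with a median of 509. S100a8, a subunit of calprotectin, had 10145, while S100a9, its partner, had 1307. Lcn2, a protein that withholds bacterial iron carriers, had 7655 and Camp, the cathelicidin peptide precursor, 5653. Mpo and Elane, granule enzymes made in marrow precursors, had 796 and 277. Mmp8, Cxcr2 and Csf3r of the same list were not detected (signals -18.1, 4.24 and -0.104). Ltf and Lcn2 are also gland products, and the share of each source was not tested.

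The globin promoters are shown for comparison with those of the glands, with TATAA in capitals, together with those of A2ml1, Bpifb6 and, as a gene without the motif, Rpl41; the windows were chosen after the matches were seen. The windows again run from 80 bases before to 20 after the start, at chr11:32283592-32283691 (plus strand), chr7:103827909-103828008 (minus), chr6:128581587-128581686 (minus), chr2:153900308-153900407 (plus) and chr10:128549149-128549248 (minus).
Hba-a1: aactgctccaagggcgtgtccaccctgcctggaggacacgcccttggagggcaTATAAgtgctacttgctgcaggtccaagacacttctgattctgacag
Hbb-bs: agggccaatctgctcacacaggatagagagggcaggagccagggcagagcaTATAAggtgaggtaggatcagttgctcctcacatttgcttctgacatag
A2ml1: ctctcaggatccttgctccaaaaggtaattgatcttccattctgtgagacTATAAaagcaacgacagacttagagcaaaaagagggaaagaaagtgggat
Bpifb6: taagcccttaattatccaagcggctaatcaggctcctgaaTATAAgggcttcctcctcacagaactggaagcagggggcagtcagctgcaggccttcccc
Rpl41: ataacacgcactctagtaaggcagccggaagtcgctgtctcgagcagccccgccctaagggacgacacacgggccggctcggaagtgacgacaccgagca
The motif began 27 bases before the start of Hba-a1, 29 before that of Hbb-bs, 30 before that of A2ml1 and 40 before that of Bpifb6.

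The promoter motif was counted over all ranked genes. TATAA beginning 40 to 20 bases before an annotated start stood in 17 of 96 promoters of the 100 highest genes (17.7%), in 27 of 927 promoters of the 900 genes next in rank (2.91%) and in 246 of 8080 promoters of all detected genes (3.04%). Its share over all 32851 promoters of the RefSeq table was 3.51%, and on the opposite strand, as TTATA in the same window, it was 1.64%. Of the 100 highest genes 81 had a promoter in the table. Shares in single kinds of gene rest on few promoters. The motif stood in 13 of 30 promoters of detected gland genes (43.3%), where 3 of 30 held it on the opposite strand (10%). It stood in 2 of 41 of ribosomal proteins (4.88%), in 1 of 25 of olfactory neuron genes (4%) and in 0 of 52 of the oxidative phosphorylation list. In sustentacular cell enzymes it stood in 3 of 18 (16.7%), a check that is void because 77.3% of the genes had a promoter, under the 80% asked for, which the ribosomal proteins passed narrowly with 80.5%. The ratio of observed to expected CpG, which is low where DNA of the germ line is methylated, had a median of 0.155 in the gland promoters, 0.861 in the ribosomal ones and 0.708 in those of all detected genes. Genes that share descent, such as the lipocalins, share promoter sequence and are not independent in these counts.

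**Figure D5:**
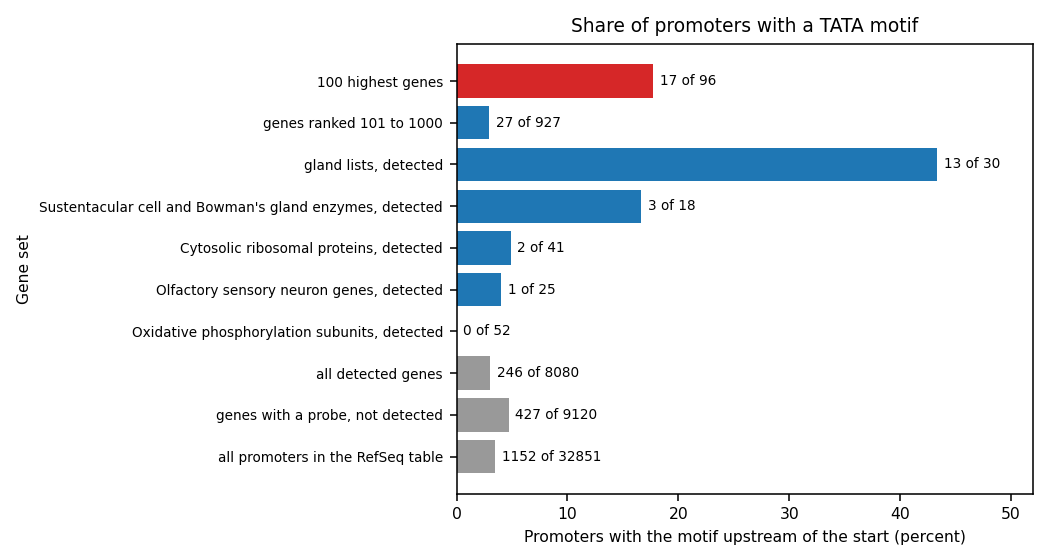
Percent of promoters with TATAA beginning 40 to 20 bases before the start, with the counts behind each bar. The 100 highest genes (red, 17 of 96) and the gland lists (13 of 30) stand above all detected genes (grey, 246 of 8080). No promoter of the 52 for the oxidative phosphorylation list holds the motif.

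The 100 highest genes were also compact. Their median span on the genome, introns included, was 7.31 kb, against 12.4 kb for the 900 genes next in rank and 18.3 kb for all detected genes. Genes without detection had a median span of 19.0 kb.

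Detected genes of macrophages and dendritic cells had moderate signals. Of 30 macrophage and dendritic cell genes 19 were detected (63.3%, against 46.0% of all genes), with a median of 544. Adgre1, Cd163, Itgax and Mpeg1 were not detected (signals 6.85, -10.6, -3.18 and 24.2). Lyz2 had a signal of 1037 with a detection p-value of 0.449. Laptm5, a lysosomal protein of blood cells, had 4810, Apoe, an apolipoprotein of macrophages and glia, 4581, and the MHC class II genes H2-Eb1 and H2-Ab1 3780 and 3398. The complement genes C1qb, C1qa and C1qc, made by tissue macrophages, had 951, 544 and 535. B2m, the light chain of MHC class I, had 7214.

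Of 17 T and NK cell genes 7 were detected (41.2%, against 46.0% of all genes), with a median of 218, close to the 203 of all detected genes. Cd8b1 had 815, and Cd3d, Cd3e and Cd3g of the T cell receptor complex had 430, 220 and 218. Cd247 of the same complex, Cd4, Gzma and Ncr1 were not detected (signals 0.711, -4.81, -9.30 and -10.5). Of 17 B and plasma cell genes 12 were detected (70.6%, against 46.0% of all genes), with a median of 108. The brightest, Xbp1 with 16104, is a transcription factor that all secretory cells use, and Vpreb3, a protein of B cell precursors, had 2501. Cd79b of the B cell receptor had 244, while Vpreb1, Ms4a1 and Cd79a had 40.3, 25.8 and 24.6. Jchain, which joins secreted IgA, was not detected (signal -14.9), and neither were Cd22 and Pax5 (signals 5.53 and 5.29).

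Eosinophils and mast cells are effector cells of allergy. Of 8 eosinophil genes 3 were detected (37.5%, against 46.0% of all genes): Prg2, the major basic protein, which marrow precursors make, with 1307, Il5ra with 30.5 and Prg3 with 24.9. Siglecf and Epx were not detected (signals -14.3 and 18.2). Of 14 mast cell genes 4 were detected (28.6%), Hdc, the enzyme of histamine synthesis, with 1019, Gata2, a transcription factor, with 917, and the proteases Cma1 and Mcpt4 with 92.7 and 39.2.

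Genes of bone and cartilage, the tissues beneath the mucosa, were detected as well. Of 15 bone genes 11 were detected (73.3%, against 46.0% of all genes), with a median of 168. They were led by Ibsp, the bone sialoprotein, with 767 and Alpl, the alkaline phosphatase of osteoblasts, with 536. Dmp1 and Sost of this list were not detected (signals -12.2 and -1.97). Cartilage genes were brighter. Of 20, 13 were detected (65%), with a median of 424. Among them were Sox9, a transcription factor of chondrocytes that gland cells also use, with 3796, and Chad, an adhesion protein of cartilage matrix, with 2627. Snorc, a proteoglycan of cartilage, had 2477, and Matn1, a cartilage matrix protein, 1620. Col2a1, the main collagen of cartilage, had 424, while Col9a3, Matn3 and Hapln1 were not detected (signals 12.1, -1.33 and 8.16). Ctsk, the collagen-degrading protease of osteoclasts, had 3726, but Acp5, the phosphatase that marks them, was not detected (signal 9.36). None of 8 tooth genes was detected, with signals between -13.1 for Amelx and 14.8 for Amtn.

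Detected genes of the muscle and fat lists differed in signal. Of 37 skeletal muscle genes 14 were detected (37.8%, against 46.0% of all genes), with a median of 88.8. The brightest was Cox8b, a cytochrome oxidase subunit of muscle and brown fat, with 10635, whereas Acta1, the actin of skeletal muscle, had 56.8 and Ckm, muscle creatine kinase, was not detected (signal -0.866). Of 16 adipocyte genes 7 were detected, near the share of all genes, with a median of 534 at percentile 70.2. They included Scd1, a fatty acid desaturase, at 1690 and Adipoq, encoding adiponectin, at 208. Fabp4, Plin1, Cidec and Lep of the same list were not detected (signals 12.9, -1.30, 4.29 and -15.4).

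Stroma and vessels gave a broad middle range. Of 40 fibroblast and matrix genes 31 were detected (77.5%), with a median of 1323. Igfbp5, which binds insulin-like growth factors, had 10862, Mmp2, a gelatinase, 9572, and Mgp, an inhibitor of calcification, 9188. Col1a2 had 152, and Col3a1, Fn1 and Postn were not detected (signals -1.91, 36.6 and -3.99). Of 29 endothelial and mural genes 20 were detected (69.0%, against 46.0% of all genes), with a median of 844. Acta2, smooth muscle actin, had 22544, although its other probes gave 257 and -8.57 without detection. Aqp1, a water channel, had 4827, Ccl21a, a chemokine of lymphatic vessels, 4050, and Pecam1, an adhesion molecule of endothelium, 651.

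Genes of nerve and plasma proteins had a few bright members. Of 14 genes of ensheathing and Schwann cells 8 were detected (57.1%, against 46.0% of all genes), with a median of 223. Apod, a lipocalin of glia and fibroblasts, had 15990, Cryab, a small heat shock protein, 2985 and Sox10, a glial transcription factor also used by glands, 1505. Mbp and Pmp22 had 260 and 187, while S100b and Fabp7 were not detected (signals -1.43 and -14.1). Of 24 brain genes 9 were detected (37.5%), led by Syp, a synaptic vesicle protein, with 1297. Gfap of astrocytes and Th, an enzyme of dopamine neurons, were not detected. Of 8 melanocyte genes Mlana was detected, at 66.5. Of 17 plasma protein genes 9 were detected (52.9%), with a median of 73.6. The brightest of them, Clu with 22221, encodes a secreted chaperone of many epithelia, and Alb, serum albumin, was not detected (signal -8.37). The 4 sex-linked genes with a probe, Xist among them, were not detected.

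General cell machinery held 32 of the 100 highest ranks. Of 52 ribosomal protein genes 41 were detected (78.8%), 14 of them among the 100 highest, and together they held 5.77% of the summed signal. Rps29 had 29979, Rps21 28847, Rpl13 28663 and Rps14 28387. Rpl11 (20964), Rpl34 (18922), Rpl35 (18694), Rpl9 (17921), Rps9 (16408) and Fau (15102) were also among the 60 highest genes. Ribosomal protein genes have many processed copies in the genome, and probes may read both. Of 82 genes in the list of oxidative phosphorylation subunits 58 were detected, with a median of 3440 at percentile 94.3. This list was drawn by name and also holds Ndufaf1 to Ndufaf8, which are assembly factors rather than subunits. Atp5b, the catalytic subunit of ATP synthase, led it with 27135, and Atp5j2, another subunit of ATP synthase, had 19677. Of 19 genes of iron storage, metal binding and lysosomes 18 were detected, with a median of 6524. Mt1 led them, Fth1, the ferritin heavy chain, had 15117, and Psap, a precursor of lysosomal activators, 13855. The translation factors Eef1a1, Eif3f and Eef1g had 22589, 22355 and 21900, and P4hb, an enzyme of protein folding in the endoplasmic reticulum, 18115. Prdx1, a peroxidase that removes hydrogen peroxide, had 21022 and Ppia, a prolyl isomerase, 17998. Actb and Gapdh, used as reference genes in many assays, had 18101 and 12962.

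Of 15 cell cycle genes 6 were detected (40%, against 46.0% of all genes), with a median of 154 at percentile 43.4. The brightest, Tubb5 with 6197, is a tubulin of many cells, and Top2a, a topoisomerase of dividing cells, was not detected (signal 12.9). Of 18 immediate early genes 9 were detected (50%, near the share of all genes), with Dusp1, a phosphatase of stress signalling, at 3170 and Fos, a transcription factor, at 83.4. Ier2, Atf3, Nr4a1 and Btg2 were not detected (signals -13.3, -5.96, -2.42 and -9.23).

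Among the 60 highest genes 15 stood in no list. Besides A2ml1 and Inmt, they included further enzymes of detoxification and lipid metabolism: Gpx6, a glutathione peroxidase known from olfactory mucosa, with 22926, Aldh2, the mitochondrial aldehyde dehydrogenase, with 22173, Gsta3, a glutathione transferase, with 19850, Fmo6, of the flavin monooxygenases, with 14667 and Scd2, a fatty acid desaturase, with 14402. Alas1, the first enzyme of heme synthesis outside red cells, had 17310. Membrane proteins were a further group, with Lypd2 at 27646, Tmbim6, an inhibitor of cell death in the endoplasmic reticulum, at 27580, the prion protein gene Prnp at 15177, the tetraspanin gene Cd81 at 14621 and Ly6e at 14317. Cox4i1, a cytochrome oxidase subunit that the list of respiratory chain genes did not name, had 26125, and the growth factor gene Igf2 had 14484. Further down, 5 histone genes of the H2a family, whose near-identical copies cannot be separated with certainty, were among the 100 highest. H2ac22, the brightest of them, had 4 probes with signals of 13766, 11291, 9985 and 3537. This gene was an exception. Of the 100 highest genes 10 had 2 or more probes, and 9 of these had another probe under 1000. Among these 9 were H2ac20, with a further probe at 306, and Gsta3, with a further probe at -6.44 that was not detected.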

How the data were processed

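Per the file headers, the authors' non-normalized table gives the signal intensity of 35226 probes. Beside it, per the file headers, stands a deposited detection p-value. Intensity values below 0 occur, down to -30.2. For the probe annotation no version is stated in these sources. On this array the authors' series values were the same intensity plus a constant of 70.6. BeadStudio is named in the submitters' processing notes, with no version. Of the probes 11428 were detected (32.4%). Probes with 1 gene symbol numbered 20571, with several 10 and with none 14645; 20525 were matched to RefSeq by Entrez identifier. The brightest detected probe stood for a gene. The 44 lists (1892 of 2042 entries with a probe) and the members were chosen with earlier results of these data known, and a gene in several lists counted under the first. The rule for named genes took the 60 highest genes, the 5 brightest and first 3 members of each list, Scgb1a1, and genes next to the threshold or bright without detection. All of the 60 are named; of list members and the others a selection is printed, made, like names outside the rule, after values were seen. Promoters came from RefSeq (GRCm38.p6), and protein sequences were not used here. Python 3.11.15, numpy 2.4.6 and pandas 2.3.3 were used; ranking and probe spread were tested on simulated data. No test between samples fits 1 array, whose number limits precision.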

Additional observations from a re-analysis of the deposited data

Results flagged for a closer look

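Probes outside the ranking also carried high signal. Of 14655 probes not assigned to a single gene 2981 were detected, 62 of them with a signal over 10000, beside 116 such probes with a gene name, and the brightest had 41740. Their genes were not analysed here. Among probes with a gene name, 129 had a signal over 1000 but did not pass detection. The cause was not tested.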

How the results depend on the processing

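The 10 highest genes were the same genes under every alternative that was run, and at least 96 of the 100 highest were shared. This was largely fixed beforehand. The authors' values add a constant and normexp keeps the order of signals, so neither could change a rank. Each of the 10 highest genes had 1 probe, so averaging could not lower it. The brightest named probe without detection, at 18145, lay below the 10th gene, at 31722, so a looser filter could not displace these genes. The causes of the differences below were not tested. The share of summed signal in the 10 highest genes, 4.92% as reported, was 4.78% with detection at a p-value under 0.05, 4.54% without a detection filter, 5.03% with the mean of detected probes, 4.83% after normexp background correction and 4.57% with the authors' values. That of the 100 highest, 26.2% as reported, was 25.5%, 24.3%, 26.7%, 25.7% and 24.4% in the same order. With detection at a p-value under 0.05, 4 tuft cell genes, 1 tooth gene, 3 melanocyte genes and 1 sex-linked gene were detected, the median percentile of melanocyte genes was 32.8 and that of odorant receptors 16.9. With the mean of detected probes, 1 gene of muscle and fat and 2 of stroma and vessels were among the 100 highest, and the melanocyte percentile was 28.0. Other values kept within 1.5 times for counts and, for medians, within their exact 95% interval, or the members' range where too few were detected. Leaving Vmo1 out of the vomeronasal list, an alternative chosen after seeing the data, left 7 genes of olfactory mucosa among the 100 highest. Leaving Ccl21a out of the erythroid list, also chosen after seeing the data, lowered its median percentile to 57.8, against 65.8 as reported. List counts without a detection filter have no value, since no member is then left out. No paired analysis was possible because the result comes from no test.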
